A study of Mus musculus with 16 samples.

Results

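A set of 10 members of the transforming growth factor beta (TGF-β) and bone morphogenetic protein (BMP) pathways was followed through 12 RNA-seq libraries of cultured mouse male germline stem cells. They were the ligand genes Tgfb1, Tgfb2 and Tgfb3, the receptor gene Tgfbr2, the secreted matrix gene Tgfbi, the response genes Id1, Id2 and Id3, and the inhibitory Smad genes Smad6 and Smad7. The rows carrying these 10 symbols were taken from tables of 27128 genes, and each symbol was found in every table. Levels are given as CPM (expected read counts scaled to a common library size), and all 10 reached the mean of 1 CPM asked of the 14301 genes compared.

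The cells came from B6;CBA-Tg(Pou5f1-EGFP)2Mnn/J mice at postnatal day 5.5, in which an Oct4-GFP transgene reports Pou5f1 (Oct4). Germ cells sorted as Oct4+/KIT- were cultured without serum in the presence of the growth factors EGF, bFGF and GDNF, so every group shared these factors and the transgene. In the feeder-removal experiment 1 library came from cells on mouse embryonic fibroblast (MEF) feeders (day 0), and the others from cells 4 and 9 days after a move to Matrigel, a basement membrane extract. The Matrigel density experiment compared an epithelial-like (EL) culture at 0.1 µg/cm2 with a mesenchymal-like (ML) culture at 10 µg/cm2. The sorted experiment had cells of low, middle and high Oct4-GFP from cultures at 10 µg/cm2, called GFP-low, GFP-mid and GFP-high. The inhibitor experiment had cells on MEF given the solvent DMSO or 0.5, 1 or 2 µM UNC0638, an inhibitor of the histone methyltransferase G9a, for 48 hours with the drug. Each of the 12 groups was 1 library, so differences are given without p-values or any check by replicates.

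TGF-β ligands are secreted in a latent form bound to the matrix and, once released, bind the type II receptor TGFBR2, which recruits a type I receptor that phosphorylates SMAD2 and SMAD3. BMP ligands act through other receptors and SMAD1, SMAD5 and SMAD9, and the Id genes are among their most direct targets; ID proteins bind E proteins and keep them off DNA. SMAD6 and SMAD7 are induced by the same signals and damp them. In the postnatal testis BMP signalling is known for its part in spermatogonial differentiation, and Id4 is known as a marker of spermatogonial stem cells.

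Library totals ran from 4335185 to 12019651 expected counts. All 16 germ-cell markers, Ddx4 and Dazl among them, were above the floor of 3 counts in every library, with a summed TPM (a level that also accounts for transcript length) of 3854 to 6058. Other cell types were represented as well. The 18 fibroblast markers summed to 1669 TPM in ML and 1096 in DMSO, to 361, 134 and 179 at 0.5, 1 and 2 µM, and to 24.9 to 101 in the other 7 libraries; between 9 and 17 of them were above the floor, and Fap was at 0 in all libraries but 1 µM. The 11 myeloid markers were all above the floor in the sorted cells, at 2667, 2420 and 355 TPM from GFP-low to GFP-high, against 12.5 to 62.2 TPM elsewhere, where 2 to 5 were above it. Smooth muscle markers reached 238 TPM in ML and 3.09 to 68.4 elsewhere, and endothelial markers stayed at 4.51 to 8.42. MEF feeders are mouse cells, so any reads from them would be counted with those of the germ cells, and whether feeders were removed before RNA extraction is not given in the sources used here. Day 0, on feeders, had 89.1 TPM of fibroblast markers, against 77.1 and 101 at days 4 and 9 on Matrigel. In these bulk libraries fewer cells of a type and less RNA per cell cannot be told apart.

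The promoters of 7 of the 10 genes were in a RefSeq table of assembly GRCm38.p6. Shown here are the 250 bases before the start of the 5 genes that differed at least 2-fold in 1 or more comparisons and whose table start was the end of the annotated gene, because the differences described further on concern these genes. Capitals mark the 4-base SMAD element GTCT and its reverse complement AGAC. Id3 is at chr4:136143572-136143821 on the plus strand, Tgfb1 at chr7:25686752-25687001 on plus, Tgfbr2 at chr9:116175364-116175613 on minus, Id2 at chr12:25096093-25096342 on minus and Tgfbi at chr13:56609336-56609585 on plus, each 5′ to 3′ on the strand of its gene. In the same assembly the gene Tgfb2 spans chr1:186622787-186709697, Id1 chr2:152736251-152737410, Smad6 chr9:63953076-64022085 and Tgfb3 chr12:86056743-86079041.
Id3: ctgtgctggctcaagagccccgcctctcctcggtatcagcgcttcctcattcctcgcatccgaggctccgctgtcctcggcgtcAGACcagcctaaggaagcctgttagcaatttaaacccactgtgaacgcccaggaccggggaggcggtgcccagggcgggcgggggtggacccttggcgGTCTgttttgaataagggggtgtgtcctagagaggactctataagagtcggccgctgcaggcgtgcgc
Tgfb1: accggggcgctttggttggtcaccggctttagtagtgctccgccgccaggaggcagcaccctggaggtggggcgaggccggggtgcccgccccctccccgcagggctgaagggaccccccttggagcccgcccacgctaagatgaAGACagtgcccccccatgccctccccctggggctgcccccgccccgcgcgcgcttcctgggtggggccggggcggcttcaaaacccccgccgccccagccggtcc
Tgfbr2: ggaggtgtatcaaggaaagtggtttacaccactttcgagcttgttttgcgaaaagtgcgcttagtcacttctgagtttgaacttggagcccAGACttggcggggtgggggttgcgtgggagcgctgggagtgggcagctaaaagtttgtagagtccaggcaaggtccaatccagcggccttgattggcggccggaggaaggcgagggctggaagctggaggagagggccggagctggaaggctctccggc
Id2: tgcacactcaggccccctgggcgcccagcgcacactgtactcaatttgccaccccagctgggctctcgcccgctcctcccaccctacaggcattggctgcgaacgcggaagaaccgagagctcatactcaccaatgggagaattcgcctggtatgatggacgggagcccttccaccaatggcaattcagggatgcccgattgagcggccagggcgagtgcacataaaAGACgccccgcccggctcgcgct
Tgfbi: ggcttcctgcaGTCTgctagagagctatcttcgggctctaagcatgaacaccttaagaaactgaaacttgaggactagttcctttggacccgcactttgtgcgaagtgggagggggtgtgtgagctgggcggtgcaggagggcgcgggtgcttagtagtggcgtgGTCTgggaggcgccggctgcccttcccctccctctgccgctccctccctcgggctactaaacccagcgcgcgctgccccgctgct

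The element occurred 2 times before Id3 and Tgfbi and 1 time before Tgfb1, Tgfbr2 and Id2. It is short, and 82.9% of 32851 promoters of the same length held it, with a median of 2. The 8-base palindrome GTCTAGAC was in none of the 7 member promoters and in 0.167% of all. The GC-rich element GGCGCC stood before Id2 and Tgfbi (9.59% of all promoters), and GGAGCC or its complement GGCTCC before Id3, Tgfb1, Smad6, Tgfbr2 and Id2 (26.0% of all). Of the E boxes, to which E proteins and related factors bind, CAGCTG stood before Id2 (4271 of the promoters) and CACGTG before Tgfb2 (6.02% of all). Both strands were searched, and these 4-, 6- and 8-base words can overlap one another. A match is only a run of letters, not a measured binding site.

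The 3 ligand genes were low in most libraries and had separate patterns. TGF-β1 is the form best known from immune and epithelial tissue. Tgfb1 had 0.130 CPM at day 0, 0.169 at day 4 and 0.244 at day 9, from 1, 2 and 3 counts. It had 0.704 CPM in EL and 2.90 in ML, then 0.752, 3.25 and 3.93 from GFP-low to GFP-high. It had 0.399 CPM in DMSO and 1.35, 1.75 and 2.52 at 0.5, 1 and 2 µM, from 2, 7, 10 and 11 counts. All 3 feeder-removal libraries, EL and DMSO were thus at or under the floor, and the 2 upper GFP fractions, with 41 and 37 counts, were the highest of the 12.

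Tgfb2, whose protein is prominent in developing mesenchyme and heart, had 1.17, 0.508 and 1.55 CPM at days 0, 4 and 9. In the Matrigel density pair it had 0.939 CPM in EL and 31.1 in ML, from 4 and 129 counts. The sorted fractions had 0.627, 0.634 and 0.955 CPM from low to high, and DMSO and the rising doses 1.60, 0.963, 1.05 and 1.37. One library, ML, stood far above the other 11, whose highest value was 1.60 CPM.

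Tgfb3, a ligand of palate and wound tissue, had 1.81, 1.27 and 1.46 CPM at days 0, 4 and 9, and 1.13, 1.27 and 0.637 from GFP-low to GFP-high. In EL it had 1.17 CPM and in ML 31.9, from 5 and 132 counts. In DMSO it had 5.19 CPM, and at 0.5, 1 and 2 µM it had 2.50, 2.79 and 0.916, from 26, 13, 16 and 4 counts. ML was again the highest, and DMSO, the library with the second highest fibroblast sum, came next.

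**Figure D1:**
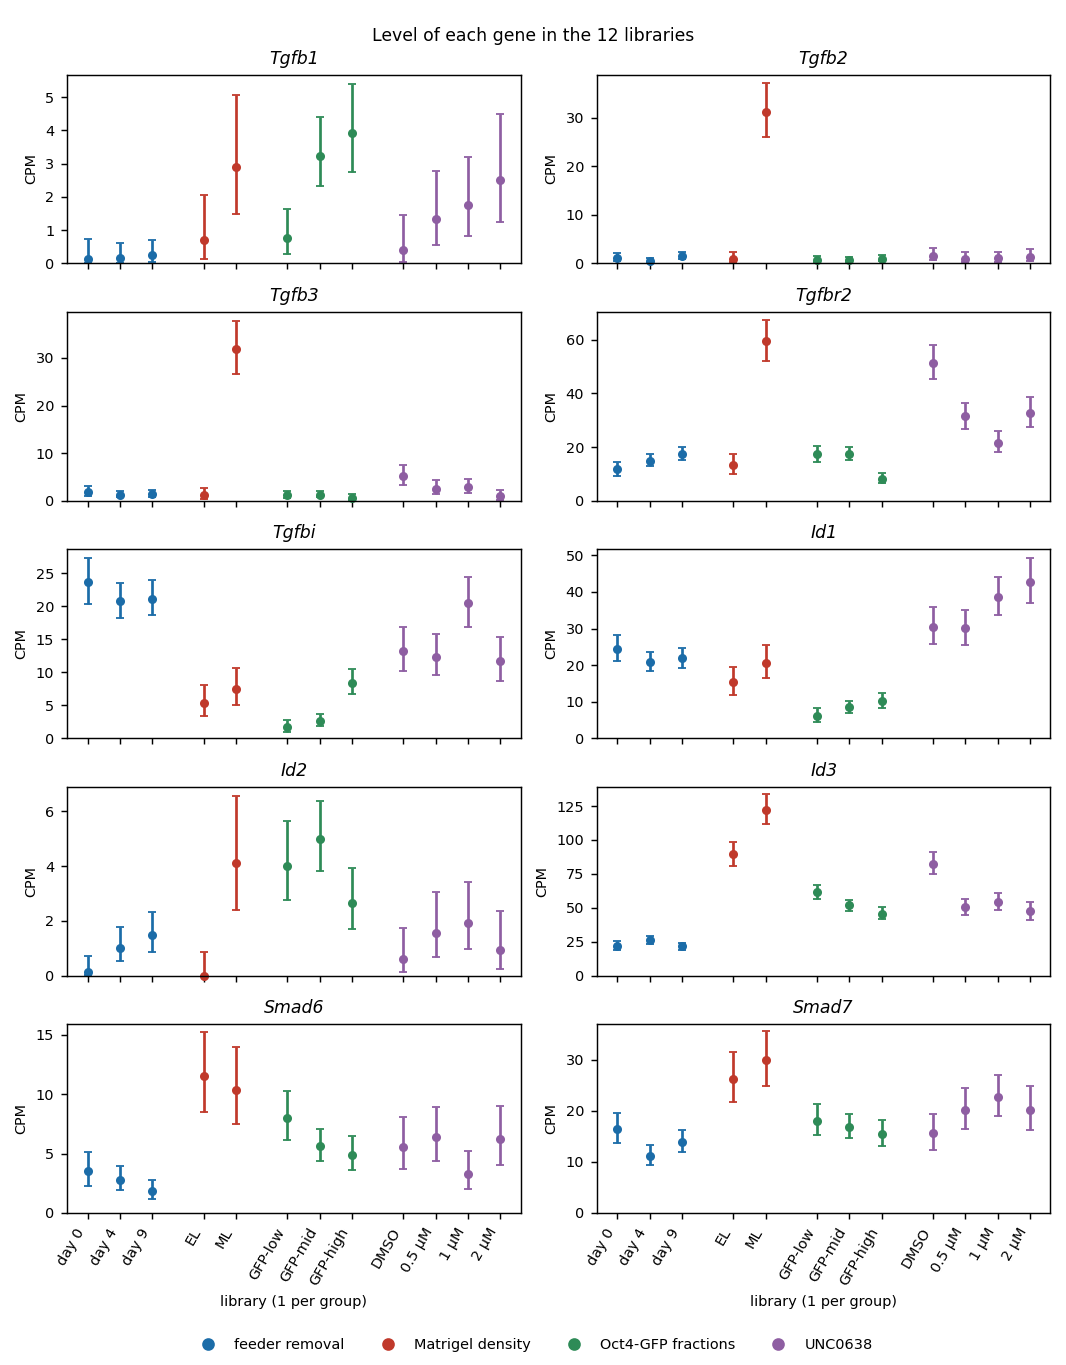
Level of each of the 10 genes in the 12 libraries (points, CPM on a linear axis that starts at 0, coloured by experiment), with 95% Poisson intervals that cover counting error only. Tgfb2 and Tgfb3 stand at 31.1 and 31.9 CPM in ML and at most 5.19 elsewhere, while Id3 is at 21.5 to 26.2 CPM in feeder removal and at 45.8 or more elsewhere.

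At the main settings more members passed 2-fold in ML against EL than in any of the other 7 comparisons. With 0.1 in place of 1 added to the CPM, DMSO against day 0 also had 5. With a filter at a mean of 10 CPM, ML against EL kept Tgfbr2 alone, and DMSO against day 0 kept Tgfbr2 and Id3. Of the 10 members 5 were at least 2-fold higher in ML and 0 were lower, where 12.5% of the 14301 genes passed 2-fold, 10.7% higher and 1.78% lower. The log2 ratio of CPM + 1 was 4.05 for Tgfb2, a 33.2-fold difference without the added 1 (12.6 to 124-fold, 95% Clopper-Pearson interval of the read split). For Tgfb3 it was 3.92, or 27.2-fold (11.3 to 85.0), and for Tgfb1 1.19, or 4.11-fold (1.11 to 22.7), from 3 and 12 counts. With 5 in place of 1 added to the CPM, Tgfb1 (0.47) was under 2-fold. The median log2 ratio of the 10 members was 0.82, against -0.06 for all genes. The fibroblast sum moved with these ligands, 76.0 TPM in EL and 1669 in ML, as did the smooth muscle sum, 3.61 and 238 TPM, and their part in the ligand differences was not tested.

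The make-up of the ligand pool differed between libraries too. Summed over the 3 genes, ligand TPM was 29.3 in ML and 1.10 to 4.46 in the others. In ML, Tgfb3 supplied 56.3% of it and Tgfb2 36.5%. In GFP-high, Tgfb1 supplied 81.4%, and in GFP-mid 73.1%, against 40.5% in GFP-low. With DMSO, Tgfb3 was 76.2% and Tgfb1 8.17%, whereas at 2 µM Tgfb1 was 65.8% and Tgfb3 17.1%. These shares rest on 12 to 65 counts outside ML, and 21 counts at 2 µM.

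In the sorted cells 2 of the 10 members, Tgfb1 and Tgfbi, were at least 2-fold higher in GFP-high than GFP-low, and 9.54% of all genes passed, 6.94% higher and 2.59% lower. The median of the members was -0.29 and that of all genes -0.02. Tgfb1 had a log2 ratio of 1.49, or 5.22-fold (2.18 to 15.1), and 0.63, under 2-fold, with 5 added in place of 1. Most of that step lay between GFP-low and GFP-mid (1.28), with 0.21 between GFP-mid and GFP-high. Myeloid markers ran the other way, from 2667 to 355 TPM, and 11 of 11 were at least 2-fold lower in GFP-high. Fibroblast markers ran with Tgfb1, from 24.9 to 78.6 TPM, and their part in the difference was not tested. The endogenous gene that the reporter follows, Pou5f1, had 83.9, 176 and 367 CPM from low to high, the order of the labels.

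With UNC0638 at 2 µM Tgfb1 and Tgfb3 differed in direction. None of the 10 members passed 2-fold at 0.5 µM, where 3.71% of all genes did (1.58% higher, 2.13% lower). At 1 µM 1 member passed, against 6.71% of all genes (2.59% higher, 4.12% lower), and at 2 µM 2 passed, against 7.01% (3.42% higher, 3.59% lower). At 2 µM Tgfb1 was higher, with a log2 ratio of 1.33 (read-split interval 0.46 to 5.87), and Tgfb3 was lower, at -1.69 (-4.48 to -0.97). Tgfb2 had -0.40 (-2.69 to 1.06), -0.34 and -0.13 at the rising doses. It had 8 counts in DMSO and 5, 6 and 6 at the doses, so its direction was not resolved. The fibroblast sum was also lower, 179 TPM against 1096, and its part in the Tgfb3 difference was not tested. The 3 doses share the DMSO library. Neither ligand passed 2-fold at 2 µM once 5 in place of 1 was added to the CPM.

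Tgfbr2, the type II receptor that binds all 3 ligands, had a median of 7.53 TPM over the 12 libraries, against 0.410 to 0.870 for the ligands. It had 11.7, 14.9 and 17.5 CPM at days 0, 4 and 9. It had 13.4 CPM in EL and 59.4 in ML, and 17.3, 17.4 and 8.28 from GFP-low to GFP-high. DMSO had 51.3 CPM, and 0.5, 1 and 2 µM had 31.4, 21.6 and 32.8. ML and DMSO were the 2 highest libraries, and all 4 libraries of the inhibitor experiment lay above the day 0, 4 and 9 libraries.

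The receptor was 4.44-fold higher in ML than EL (3.32 to 6.03, log2 ratio 2.07). It was the 1 member past 2-fold at 1 µM, at -1.21 (-1.57 to -0.93), with -0.69 and -0.63 at 0.5 and 2 µM, so the middle dose had the lowest level. In the deposited TPM the value at 1 µM was -0.94, under 2-fold. The files list 2 transcripts for this gene, and the unit mattered in the sorted cells: GFP-high against GFP-low was -0.98 in CPM and -0.27 in TPM. Summed fibroblast TPM had the same order as the receptor across the inhibitor libraries, 1096, 361, 134 and 179 against receptor TPM of 20.92, 15.1, 10.44 and 12.84, and its part was not tested. In CPM the order differed, with the receptor at 51.3, 31.4, 21.6 and 32.8, where 2 µM was above 0.5 µM and their counting intervals overlapped.

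**Figure D2:**
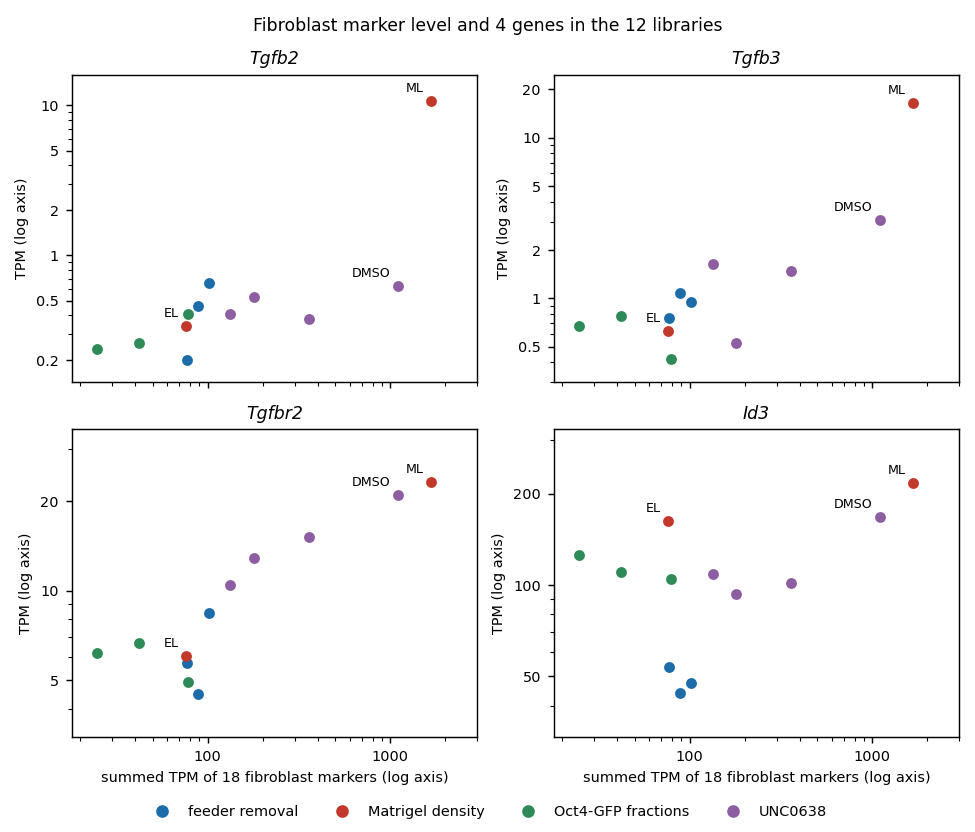
TPM of Tgfb2, Tgfb3, Tgfbr2 and Id3 (vertical, log axis) against the summed TPM of 18 fibroblast markers (horizontal, log axis), 1 point per library coloured by experiment. Tgfbr2 is highest in ML and DMSO, the 2 libraries with 1669 and 1096 TPM of fibroblast markers, while Id3 is at 162 TPM in EL, where those markers sum to 76.0.

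Tgfbi, a secreted matrix protein named for its induction by TGF-β, had 23.6, 20.7 and 21.2 CPM at days 0, 4 and 9. It had 5.40 CPM in EL and 7.48 in ML, and 1.63, 2.61 and 8.39 from GFP-low to GFP-high. In DMSO and the rising doses it had 13.2, 12.3, 20.4 and 11.7 CPM. The 3 feeder-removal libraries were the highest, just above 1 µM, and GFP-low was the lowest. The summed level of 7 Sertoli cell markers was also highest in feeder removal and lowest in GFP-low, at 40.4 to 49.7 TPM in feeder removal, 35.3, 34.7, 23.7 and 24.5 from DMSO to 2 µM, 12.3 in EL, 20.7 in ML and 6.32 to 8.50 in the sorted cells. Elsewhere the match did not hold. Within the inhibitor libraries 1 µM had the highest Tgfbi and the lowest Sertoli sum, as day 0 had within feeder removal. GFP-high had more Tgfbi than EL and ML and a smaller Sertoli sum. Between 3 and 5 of these markers were above the floor, Fshr was at 0 in all 12 libraries and Amh in 9, and their part in the Tgfbi level was not tested. GFP-high exceeded GFP-low 5.14-fold (2.84 to 10.1, log2 ratio 1.84), from 13 and 79 counts, and the larger part of that step was between GFP-mid and GFP-high. From GFP-low to GFP-high the fibroblast sum was 24.9, 41.9 and 78.6 TPM and the myeloid sum 2667, 2420 and 355. Their part in this difference was not tested. ML against EL was 0.41 (-0.35 to 1.32), a difference that was not resolved at this depth. In DMSO, with 1096 TPM of fibroblast markers, Tgfbi was below day 0, with 89.1 TPM of them, by a log2 ratio of -0.79 (-1.27 to -0.43), under 2-fold.

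The Id genes encode helix-loop-helix proteins without a DNA-binding region. Id1 had 24.4, 20.8 and 21.8 CPM at days 0, 4 and 9, then 15.3 in EL and 20.5 in ML. The sorted fractions had 6.14, 8.39 and 10.2 CPM from low to high. DMSO had 30.5, and the doses had 30.0, 38.6 and 42.8. The sorted libraries were the lowest 3 and the inhibitor libraries the highest 4, and no comparison within an experiment passed 2-fold. Id1 at 1 and 2 µM against DMSO was 0.33 (0.03 to 0.64) and 0.47 (0.17 to 0.81).

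Id3 had 21.8, 26.2 and 21.5 CPM at days 0, 4 and 9. It had 89.4 CPM in EL and 122 in ML, and 61.4, 51.8 and 45.8 from GFP-low to GFP-high. DMSO had 82.4, and 0.5, 1 and 2 µM had 50.3, 54.5 and 47.4. The 3 feeder-removal libraries were the lowest, and 45.8 CPM was the smallest value of the other 9. How many of all genes set whole experiments apart in this way, as Id1 and Id3 did, was not counted. Id3 at the 3 doses was -0.70, -0.59 and -0.79 against DMSO, each interval below 0 but none past 2-fold. The fibroblast sum was lower at each dose too, and its part was not tested. In TPM, Id3 was at 162 in EL, with 76.0 TPM of those markers, and at 167 in DMSO, with 1096. EL and DMSO come from different experiments, so this pair does not test that part.

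For some members the range over the 12 libraries is given beside the largest range within an experiment, which it can only equal or exceed. Id1 spanned 2.62 log2 units over the 12 libraries and at most 0.65 within an experiment, and Id3 2.46 and 0.79. Smad6 spanned 2.12 and 0.77, and Smad7 1.34 and 0.52. Tgfbi spanned 3.23 and 1.84, and Id2 2.58 over the 12 libraries and 2.35 between EL and ML alone. The same ranges were not counted over all genes. Both feeder cultures without inhibitor gave a yardstick, since DMSO and day 0 are nominally alike: 3 of the 10 members were at least 2-fold higher in DMSO, where 19.4% of all genes passed, 12.2% higher and 7.22% lower. These were Id3 at 1.87 (1.66 to 2.19), Tgfbr2 at 2.05 (1.79 to 2.50) and Tgfb3 at 1.14 (0.53 to 2.57). The fibroblast sum was 89.1 TPM on day 0 and 1096 in DMSO, with 16 of the 17 fibroblast markers that passed the filter at least 2-fold higher in DMSO, and its part in these differences was not tested. In TPM and with a pseudocount of 5 the Tgfb3 difference was under 2-fold. A technical batch cannot be told apart from the experiment in these levels.

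Within a library the balance of Id3 to Id1 does not depend on the scaling between libraries. By TPM the ratio of Id3 to Id1 was 0.852 at day 0, 1.197 at day 4 and 0.939 at day 9. In the sorted cells it was 9.52 (7.09 to 13.1) in GFP-low, 5.88 in GFP-mid and 4.27 (3.42 to 5.39) in GFP-high. In DMSO it was 2.57 (2.13 to 3.12), and at 0.5, 1 and 2 µM it was 1.60 (1.30 to 1.96), 1.35 (1.13 to 1.61) and 1.06 (0.862 to 1.29). The ratio was lower at each higher step of GFP and of dose, and the intervals of the first and last step did not overlap in either series. EL and ML, with fibroblast sums of 76.0 and 1669 TPM, had ratios of 5.59 and 5.69. In the other series markers differed too: the myeloid sum went from 2667 to 355 TPM from GFP-low to GFP-high. The fibroblast sum was 1096, 361, 134 and 179 TPM from DMSO to 2 µM, higher at 2 than at 1 µM, where the ratio was lower. Their part in the ratio was not tested.

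**Figure D3:**
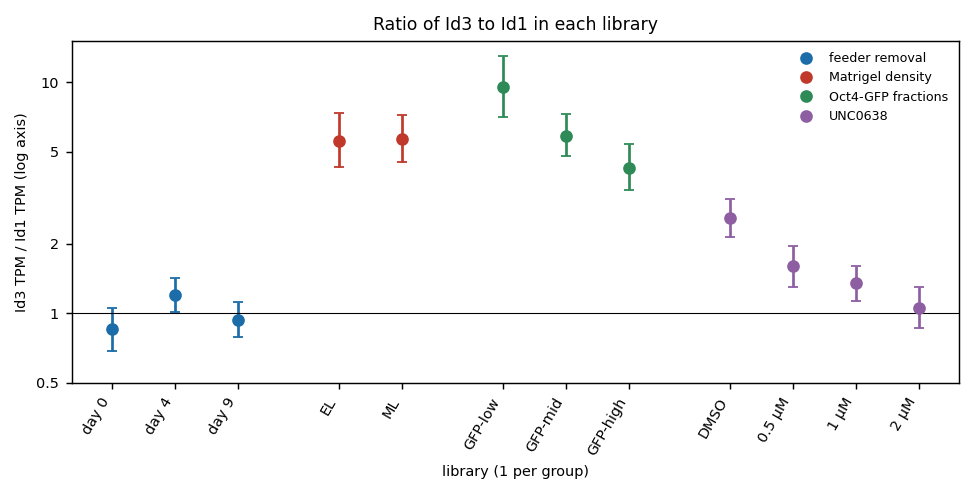
Ratio of Id3 to Id1 TPM in each of the 12 libraries (points, log axis, coloured by experiment) with 95% intervals of the read split between both genes. The ratio falls from 9.52 to 4.27 from GFP-low to GFP-high and from 2.57 to 1.06 from DMSO to 2 µM.

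Id2 was the scarcest of the 3 Id genes, with a median of 2.31 TPM against 47.7 for Id1 and 107 for Id3. It had 0.130, 1.02 and 1.46 CPM at days 0, 4 and 9, from 1, 12 and 18 counts. It was at 0 counts in EL and at 4.10 CPM in ML from 17 counts. In the sorted cells it had 4.01, 4.99 and 2.65 CPM from low to high, and DMSO and the doses 0.599, 1.54, 1.92 and 0.916. The sorted libraries and ML were the 4 highest. Id2 was the 1 member past 2-fold at day 9 against day 0 (1.13, interval 0.83 to 8.88), where 2.6% of all genes passed, 1.62% higher and 0.979% lower. At day 4 no member passed, against 2.28% of all genes (1.25% higher, 1.03% lower). Set against a floor of 3 counts in EL, ML was at least 5.83-fold higher, a value that leaves out the counting error of ML. The read-split interval, which includes it, began at 4.25-fold. With 5 in place of 1 added, Id2 was under 2-fold in both comparisons. The sorted libraries also held 355 to 2667 TPM of myeloid markers, whose part in the Id2 level was not tested.

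The E proteins that ID proteins bind were measured as well. The E2A gene, listed under its older symbol Tcfe2a, had 171, 159 and 154 CPM at days 0, 4 and 9, 202 in EL and 292 in ML. It had 114, 329 and 418 CPM from GFP-low to GFP-high, and 172, 231, 372 and 333 from DMSO to 2 µM. GFP-high against GFP-low was 1.86 (1.76 to 1.97), and 1 µM against DMSO was 1.11 (1.00 to 1.23). Over the same comparisons the myeloid sum went from 2667 to 355 TPM and the fibroblast sum from 1096 to 134 TPM, and their part in the E2A differences was not tested. Tcf12 stayed between 42.6 and 85.9 CPM and Tcf4 between 7.40 and 16.0, with no comparison past 2-fold.

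Smad6 and Smad7 encode the inhibitory SMADs, SMAD6 acting mainly on BMP signals and SMAD7 on both branches. Smad6 had 3.50, 2.79 and 1.87 CPM at days 0, 4 and 9, 11.5 in EL and 10.4 in ML. The sorted fractions had 8.02, 5.62 and 4.88 CPM from low to high, and DMSO and the doses 5.59, 6.35, 3.32 and 6.19. Smad6 was highest in EL and ML, and the feeder-removal libraries and 1 µM were the lowest 4. Smad6 was -0.65 (-1.77 to -0.05) at day 9 and -0.62 (-1.30 to -0.15) in GFP-high against GFP-low, both under 2-fold.

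Smad7 had 16.5, 11.3 and 14.0 CPM at days 0, 4 and 9, and 26.3 in EL and 29.9 in ML. It had 18.1, 16.9 and 15.5 CPM from GFP-low to GFP-high, and 15.6, 20.2, 22.7 and 20.2 from DMSO to 2 µM. It was the steadiest of the 10 genes, with EL and ML highest. Its largest differences were -0.51 (-0.91 to -0.19) at day 4 and 0.52 (0.13 to 0.97) at 1 µM. In ML against EL, where Tgfb2 and Tgfb3 were 33.2-fold and 27.2-fold higher, Smad7 was 0.18 (-0.19 to 0.57) and Smad6 -0.14 (-0.77 to 0.47), or 0.22 with ratios centred on the germ-cell markers.

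**Figure D4:**
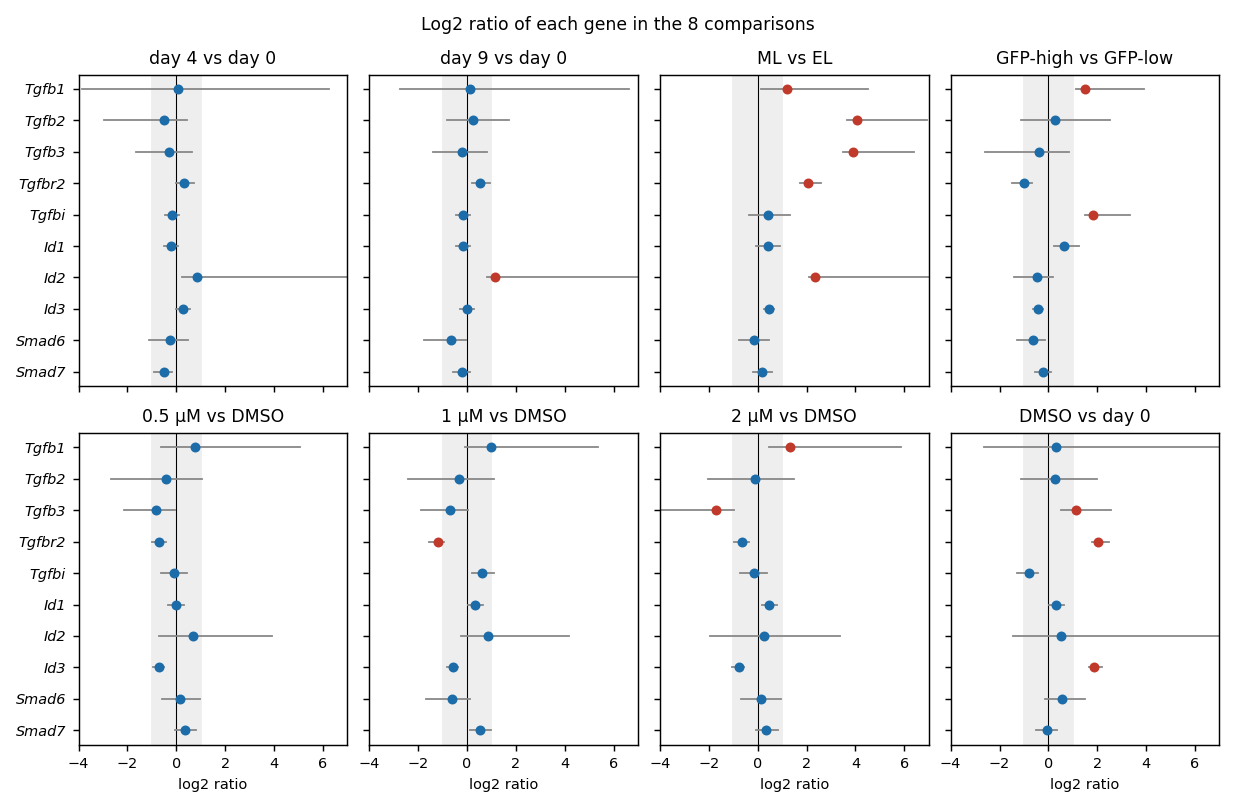
Log2 ratio of CPM + 1 for the 10 genes in the 8 comparisons (points) with 95% read-split intervals, drawn without the added 1 and clipped at the edges of the axis. The grey band marks under 2-fold, and red points are past it; the 5 red points of ML against EL are Tgfb1, Tgfb2, Tgfb3, Tgfbr2 and Id2.

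The other genes of both pathways were read from 7 lists of 84 genes, of which 70 passed the same filter. In ML against EL, 33 of the 70 were at least 2-fold higher and 2, Smad9 and Chrd, lower, with a median of 0.76, where 10.7% of all genes were higher and 1.78% lower. With a filter at a mean of 10 CPM, which tests fewer genes, 16 passed in either direction, and the share of all genes under that filter is not given. Other than the largest differences, genes named from these lists were chosen after their values were seen. Of genes that hold TGF-β latent or release it, 7 of 8 were higher (median 3.25), and of TGF-β targets 11 of 14 (median 3.57). Of the 11 receptors 4 were higher: Tgfbr3, Acvrl1, Acvr1 and Eng. Of the 9 ligands 3 were higher, Inhba and Inhbb, which encode activin subunits, and Bmp8a. Bmp8a reached the filter only through ML, with 3.14 CPM there and a mean of 0.822 in the other 11 libraries, so its call is not counted as support and leaves 32 of the 70. Among the inhibitors Grem1, Fstl3, Bmper and Dcn were higher, and of the 6 Smads Smad4, the partner shared by both branches. Of the 8 BMP targets 2, Dlx2 and Gata3, were higher and the median was -0.08. The TGF-β targets and latency genes thus stood above the all-gene median of -0.06 in ML and the BMP targets near it. The largest differences were in Acta2, smooth muscle actin, from 2.11 to 189 CPM, and Thbs1, thrombospondin 1, an activator of latent TGF-β, from 41.8 to 2177 CPM. Col1a1, Col1a2 and Dcn of these lists are also fibroblast markers, and Acta2 and Tagln smooth muscle markers.

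After feeder removal, 1 of the 70 was higher at day 4 (Inhbb) and 2 lower (Grem1 and Ltbp3), 4.29% of the list against 2.28% of all genes. At day 9, 3 were higher (Inhbb, Eng and Fstl3) and 6 lower, 12.9% of the list against 2.6% of all genes. These counts changed with the treatment of low levels: with 5 in place of 1 added to the CPM 0 genes passed at day 4 and 1 at day 9, with 0.1 added 7 and 15, and with a filter at a mean of 10 CPM 1 and 2. The shares of all genes under these settings are not given. Acta2 was 6.51-fold lower at day 9 (44.98 to 6.92 CPM) and Id4 2.36-fold lower (13.2 to 5.61 CPM). The smooth muscle markers, Acta2 among them, summed to 54.6 TPM at day 0, 68.4 at day 4 and 14.7 at day 9, and the part of such cells in the Acta2 difference was not tested. The TGF-β targets had medians of -0.06 and -0.14 and the BMP targets -0.03 and -0.15 at days 4 and 9.

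From GFP-low to GFP-high 10 of the 70 were higher and 2, Gdf9 and Msx2, lower, with a median of 0.25. That was 17.1% of the list, against 9.54% of all genes (6.94% higher, 2.59% lower). The 12 became 24 with 0.1 added to the CPM and 7 with 5 added, settings for which no share of all genes is given. Gdf9 reached the filter only through GFP-low, with 6.65 CPM there and a mean of 0.795 in the other 11 libraries, so its call is not counted as support and leaves Msx2. The BMP targets split 3 higher to 1 lower of 8, and the genes past 2-fold were Id4 (6.65 to 24.2 CPM), Atoh8 (8.65 to 25.3) and Hey1 (8.53 to 19.0) upward and Msx2 (37.0 to 17.7) downward. Col1a2 went from 0.627 to 11.4 CPM and Col1a1 from 22.2 to 104, the largest differences. Both are also fibroblast markers, of which 9 of 17 were at least 2-fold higher in GFP-high and 0 lower. Of the myeloid markers 11 of 11 were at least 2-fold lower. The part of such cells in these differences was not tested. Of the Id genes Id4 passed 2-fold (1.72), and Id1, Id2 and Id3 had log2 ratios of 0.65, -0.46 and -0.42.

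UNC0638 was accompanied by lower levels of the TGF-β lists. At 0.5, 1 and 2 µM 15, 24 and 19 of the 70 were at least 2-fold lower, and 0, 0 and 1 higher. Of all genes 2.13%, 4.12% and 3.59% were lower and 1.58%, 2.59% and 3.42% higher. With 5 added to the CPM 7, 13 and 10 genes passed in either direction, without a share of all genes to set beside them. The latency list had 2, 7 and 5 of 8 lower, and the TGF-β targets 5, 9 and 6 of 14. Ctgf, a TGF-β target also called CCN2, went from 40.1 CPM in DMSO to 10.78 at 0.5 µM, 3.66 at 1 µM and 8.48 at 2 µM. Dcn, decorin, a proteoglycan that binds TGF-β, was at 128 CPM in DMSO and 10.6-fold lower at 1 µM, with 31.4 CPM at 2 µM. Both were lowest at the middle dose. Col1a1 went from 1088 CPM in DMSO to 302, 137 and 149 at 0.5, 1 and 2 µM, and Col1a2 from 553 to 162, 68.9 and 75.6, also lowest at 1 µM. Of the 18 fibroblast markers, 17 passed the filter, and 12, 17 and 15 of these were at least 2-fold lower at the 3 doses. The BMP targets had medians of 0.12, 0.23 and 0.13, with Msx1 lower at each dose and Atoh8 higher at 2 µM. The DMSO library was itself above day 0 in 26 of the 70 genes (25 without Bmp8a, which averaged 0.871 CPM over the 11 libraries other than DMSO and so reached the filter only through it) and below it in Bmp8b, Gdf9 and Acta2. Of all genes 12.2% were higher and 7.22% lower. The largest differences were Col1a2, at 22.2 CPM on day 0 and 553 in DMSO, and Col1a1 at 70.5 and 1088.

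For each member the genes with the most similar profile were sought by Pearson correlation of log2(CPM + 1) over the 12 libraries, among genes averaging 5 CPM or more. These values are descriptions, since the libraries of an experiment share their origin and depth. Tgfb3 was most like EG434215 (r = 0.976), the older symbol of Lrrc32, whose protein tethers latent TGF-β to the cell surface, and next like Itgb1 (0.973), an integrin subunit. EG434215 had 1.64 CPM in EL and 28.0 in ML, and 9.18 in DMSO against 1.37 at 2 µM, the same order as Tgfb3. Tgfb2 was most like Cav2 (0.975) and Mcfd2 (0.968), and Tgfbr2 most like Gpx3 (0.954) and Capg (0.934). Tgfb2 and Tgfb3 had 31.1 and 31.9 CPM in ML and at most 1.60 and 5.19 elsewhere. That library therefore weighs heavily in their correlations with these genes, which were not recomputed without it. Tgfb1 was most like Ifi30 (0.959) and Dmwd (0.945).

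Id3 was most like Dnajb12 (0.975) and Atp6v0a1 (0.975), and 109 genes reached 0.9 with it. With each experiment centred on its own mean these fell to 0.746 and 0.849, so part of the likeness was the level of whole experiments. Id1 was most like Hook2 (0.960, 0.664 centred) and Nolc1 (0.318 centred), and Id2 most like Zfp775 (0.869), with no gene at 0.9. Tgfbi was most like A230065H16Rik (0.967), Smad6 most like LOC668706 (0.967), and Smad7 most like Usp6nl (0.935). Between members, Tgfb2 and Tgfb3 correlated at 0.918, and at 0.433 without ML. Id3 and Smad6 correlated at 0.858, and at 0.144 with experiments centred.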

How the data were processed

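Libraries were made with a version of Smart-seq2 modified for low RNA input, per the labels' protocols. The submitters' processing notes name Trim Galore, RSEM and mm10, and the order and settings are not given in the sources used here. Per the file headers, each deposited table held an expected count (RSEM's estimated count, not normalized), a TPM and an FPKM per gene; the TPM were scaled by the authors to transcript length and library size, and the FPKM were not used.

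Expected counts were rounded and scaled to CPM with TMM factors (0.912 to 1.07) from edgeR 4.0.16 in R 4.3.3. Genes averaging 1 CPM or more were kept (14301 of 27128). Each of 8 comparisons was a log2 ratio of CPM + 1, which understates changes of low genes, and a gene was called at 2-fold or more. Intervals are at 95%, by Clopper-Pearson for the read split between libraries and exact Poisson for a level, and 3 counts served as the floor. Since PCR copies were not told apart by molecular identifiers, both kinds of limit cover counting error only. With 1 library per group the spread between replicates is unknown.

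The members and lists were chosen with earlier results of these data known. Named pathway genes were those with the 2 largest absolute ratios per comparison among genes past 2-fold with at least 50 counts in the higher library; likeness named the 2 highest correlations per member, with the first or both given here. List symbols were matched through RefSeq transcripts (18217 genes matched) or a unique older symbol, and all 84 pathway symbols matched. RefSeq promoters of GRCm38.p6 were used for sequence. Steps were tested on simulated counts. Alternatives were DESeq2 1.42.0 size factors, total counts, a filter at 10 CPM or none, pseudocounts of 5 and 0.1, the deposited TPM, centring on the germ-cell list, and a call that also needed an interval excluding no change. Software was Python 3.11.15 with scipy 1.17.1, pandas 2.3.3, numpy 2.4.6 and matplotlib 3.10.9. The 4 ATAC-seq libraries of the series were not analysed here.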

Additional observations from a re-analysis of the deposited data

How the results depend on the processing

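Counts of genes past 2-fold depended most on how low counts were treated, and no member past 2-fold changed sign. With a pseudocount of 0.1 the members past 2-fold were 2 at day 4, 3 at 0.5 µM, 3 at 1 µM and 5 for DMSO against day 0, and the other pathway genes 7 at day 4, 15 at day 9 and 24 for GFP-high. With a pseudocount of 5 the members were 0 at day 9, 3 for ML, 1 for GFP-high and 0 at 2 µM, and the pathway genes 0 at day 4, 1 at day 9, 7 for GFP-high, 7, 13 and 10 at the 3 doses and 15 for DMSO. With a filter at a mean of 10 CPM, which tests fewer genes, the members were 0 at day 9, 1 for ML, 1 for GFP-high and 0 at 2 µM, and the pathway genes 1 at day 4, 2 at day 9, 16 for ML, 6, 14 and 12 at the doses and 14 for DMSO. The share of all genes passing at these pseudocounts and this filter is not given, so these counts show only how the calls depend on the settings. In the deposited TPM, 1 member passed at day 4, where 142 of the 14301 genes were higher and 119 lower. At day 9, 5 pathway genes passed in TPM, where 183 of all genes were higher and 108 lower. Centring on the germ-cell list gave 19 pathway genes for GFP-high, where 1741 of all genes were higher and 227 lower. That centring moved the all-gene median by more than 0.1, to 0.30 for ML against EL, 0.24 for GFP-high and 0.21 for DMSO against day 0, and -0.12 and 0.11 at 0.5 and 2 µM. At day 9 it moved by less than 0.1, from 0.02 to 0.11. The share of all called genes that were higher moved with it, from 85.7% to 96.8% for ML, 72.8% to 88.5% for GFP-high, 62.4% to 75.2% at day 9, 42.6% to 28.5% at 0.5 µM, 48.8% to 64.8% at 2 µM and 62.8% to 79.5% for DMSO against day 0. In TPM the median was 0.13 at day 9 and 0.11 for GFP-high. Of 560 member ratios under alternatives, 547 moved by less than their counting interval and 13 by more; the sign of Id3 at day 9, Smad6 in ML, and Smad7 in GFP-high and in DMSO against day 0, none past 2-fold, depended on the scaling. No paired analysis was possible because each RNA group had 1 library and the labels give the RNA libraries no replicate numbers. Levels at or under 3 counts, such as Tgfb1 in the feeder-removal libraries, cannot be ordered among themselves at this depth.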
